A study of Homo sapiens with 4 samples.

Results

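The 43 genes described here encode regulators of pre-mRNA splicing: 14 SR proteins (the SRSF family with TRA2A and TRA2B), 19 heterogeneous nuclear ribonucleoproteins (hnRNPs), 3 polypyrimidine tract-binding (PTB) proteins, and 7 other sequence-specific regulators (RBFOX2, CELF1, MBNL1, MBNL2, QKI, TIA1 and TIAL1). They were taken by symbol from the 18417 genes that had a probe set carrying a single gene symbol. The symbol rule used no measured values, but it was chosen with earlier results of these data known. Each gene was represented by its brightest such probe set. Expression had been measured on 4 Affymetrix arrays in MDA-MB-231, a widely used human breast cancer line with mesenchymal features. One set of cells expressed a control short hairpin RNA with no specific target (shNS) and the other a hairpin against DBC1 (shDBC1), the protein encoded by CCAR2. Each line was measured on 2 arrays labelled as biological replicates, and cells of both lines were untreated. The labels give 1 hairpin against DBC1 and do not say whether the lines were pools or clones.

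Splicing removes introns from a transcript, and the choice of which exons to keep depends on proteins that bind the transcript near splice sites. SR proteins carry domains rich in arginine and serine and mostly favour inclusion of exons whose enhancers they bind, while hnRNPs and PTB proteins often act as repressors. DBC1 is known as a subunit, with ZNF326, of the DBIRD complex, which binds RNA polymerase II and messenger ribonucleoproteins and influences the inclusion of some exons in A+T-rich sequence. The question addressed here was whether transcripts of the splicing regulators themselves had other levels in the DBC1-depleted line. The values are one per probe set and array and do not separate isoforms, so inclusion of exons was not measured.

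The deposited values are normalised log2 intensities, on which a difference of 1 is a doubling. CCAR2 read 9.62 and 9.41 on the shNS arrays against 8.76 and 8.16 on the shDBC1 arrays, 48.1% of the control intensity, with no overlap between the lines. The difference of -1.06 (SE 0.23) did not pass the limma test over all genes (adjusted p = 1). The 8 markers chosen for MDA-MB-231, among them VIM and CD44, were all above the intensity filter (a log2 value of 6.58). Of the 10 luminal breast markers 8 were also above it and ESR1 and PGR were below, and of 4 measured leukocyte markers CD68 and ITGAM were above it and PTPRC and CD3E below. All 5 muscle markers, all 4 measured neuronal markers and 2 of 5 fibroblast markers were above it too. Passing this filter therefore does not by itself mark a cell type. The part of other cells in the results was not tested. Arrays with the same replicate number from different lines correlated at 0.995 and 0.993 across probe sets, and the 2 arrays of one line at 0.992 (shNS) and 0.991 (shDBC1).

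Of the 43 regulators 40 passed the intensity filter and were tested, and differences between the lines were small. None of them passed limma's test at an adjusted p under 0.05, where 0% of the 13813 genes tested did (475 genes had an unadjusted p under 0.05). The differences ran from -0.30 for SRSF4 to 0.45 for PTBP2, and none reached 1.5-fold, which 1.75% of all genes tested did. In 38 of 40 regulators the difference was under 1.2-fold. At an unadjusted p under 0.05 there was 1 regulator, PTBP2, which is 2.5% of those tested against 3.44% of all genes tested. The readings of the lines did not overlap for 5 regulators (12.5%), against 24.9% of all genes tested. PTBP2 alone was higher on both shDBC1 arrays, as were 11.6% of all genes, and SRSF4, HNRNPUL1, PTBP3 and TIA1 were lower on both, as were 13.2%. The shares by unadjusted p and by overlap were both below those of all genes, so the list held no excess of differences by either measure. Direction was less even: 29 of 40 (72.5%) were below 0, against 47.7% of all genes tested. The medians were -0.06 and 0.0065. Without the second shDBC1 array 15 of 40 were below 0, and without the first 34 of 40.

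**Figure D1:**
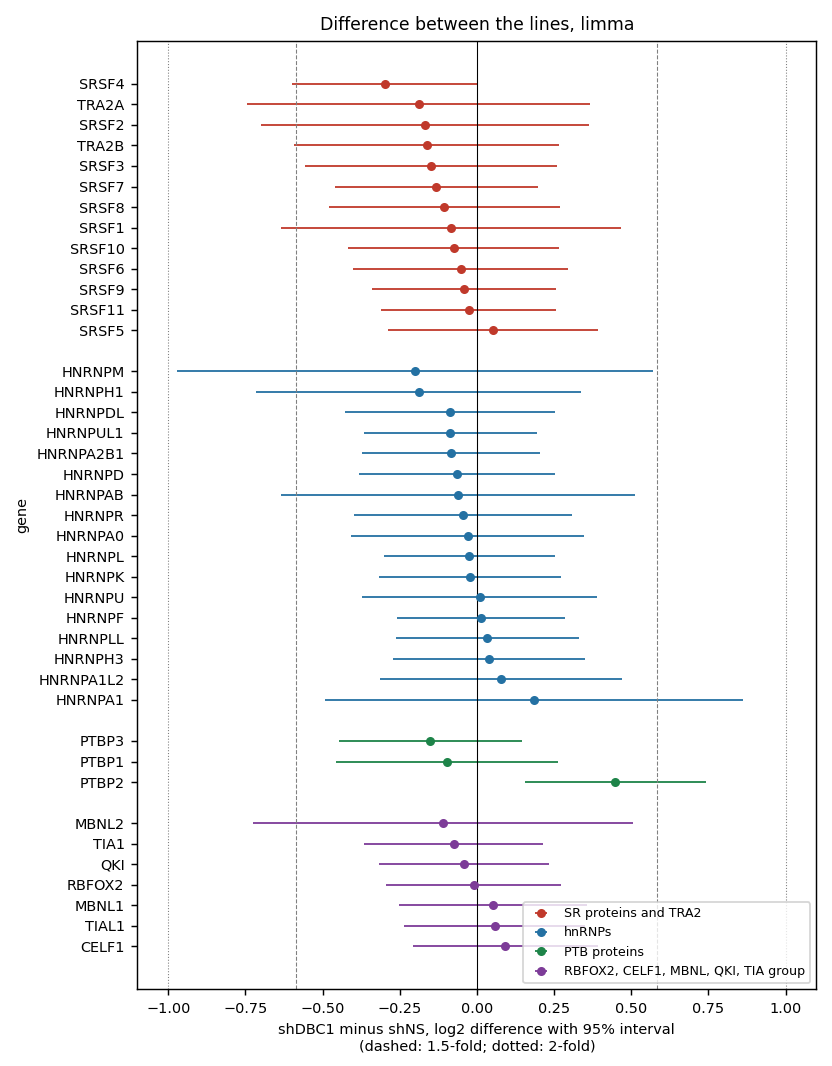
Log2 difference of shDBC1 minus shNS for the 40 regulators tested (horizontal axis), with 95% intervals of the limma fit, grouped by role; dashed lines mark 1.5-fold and dotted lines 2-fold in either direction. PTBP2 at 0.45 is the only gene whose interval lies above 0, the interval of SRSF4 just reaches 0, and all 40 intervals lie inside 2-fold.

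In the fit by group alone, the intervals set a bound on what could have been missed. All 40 regulators had a 95% interval that lay inside 2-fold in both directions, as did 93.6% of all genes tested. For 29 of them (72.5%) it also lay inside 1.5-fold, against 70.3% of all genes tested. The 11 whose interval reached past 1.5-fold were SRSF1, SRSF2, SRSF4, TRA2A, TRA2B, HNRNPA1, HNRNPAB, HNRNPH1, HNRNPM, PTBP2 and MBNL2. These intervals are those of single genes, are not adjusted for the number of genes, and rest on 2 arrays per line. They also take no account of the replicate numbers. With the replicate number added to the fit, the SE went from 0.29 to 0.11 for HNRNPM and from 0.20 to 0.10 for SRSF2. For PTBP2 it changed little, from 0.11 to 0.10. Fewer cells expressing a gene and less RNA per cell cannot be told apart in RNA from a whole culture.

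The PTB proteins bind pyrimidine-rich tracts, mainly repress exons, and include the widely expressed PTBP1 and its paralog PTBP2, best known from neurons, where it takes over as PTBP1 declines. PTBP2 read 9.70 and 9.65 on the shNS arrays and 10.1 and 10.2 on the shDBC1 arrays. Both shDBC1 readings were above both controls, and the gap between the lines was larger than the gap within either. The group levels were 9.68 ± 0.031 and 10.1 ± 0.090 (SD, n = 2). This is a 1.36-fold higher intensity in shDBC1, a log2 difference of 0.45 (SE 0.11, interval 0.16 to 0.74), ranked 108 of 13813 genes by unadjusted p (0.012). The adjusted p in limma was 1, so the difference did not pass. Leaving out 1 array at a time gave 0.38 to 0.51. The unadjusted p was no longer under 0.05 without the second shNS array or without the second shDBC1 array.

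PTBP1 and PTBP3 pointed the other way and neither passed. PTBP1 read 12.4 and 12.2 in shNS and 12.3 and 12.1 in shDBC1, with overlapping readings and a difference of -0.10 (SE 0.14, interval -0.46 to 0.26). Without the second shDBC1 array the PTBP1 difference was 0.017 against the mean of both controls. Between the arrays numbered 1 it was -0.06. PTBP3, the third paralog, read 10.4 and 10.5 with the control hairpin and 10.3 and 10.2 in shDBC1. Its shDBC1 readings were both below the controls, by 0.15 on average (-0.15, SE 0.11, interval -0.45 to 0.15). Among markers of neurons, SNAP25 read 7.26 and 7.40 in shNS and 7.51 and 7.82 in shDBC1. SYT1, MAP2 and RBFOX3 had differences of -0.14, -0.08 and -0.01 with overlapping readings. Thus 1 of the 4 measured neuronal genes tested lay higher on both shDBC1 arrays, as did 11.6% of all genes tested. All 4 read between 6.18 and 7.82, against a filter level of 6.58.

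The upstream sequences of PTBP2 and SRSF4 are shown because these regulators had the smallest p in each direction. Both are the 250 bases before the start site from RefSeq (GRCh38.p14), and the array's own coordinates were not used. Capitals mark CCGGAAG or its reverse complement CTTCCGG, the core bound by ETS factors, the family that includes the PEA3 factors.
PTBP2 (chr1:96722388-96722637, plus strand): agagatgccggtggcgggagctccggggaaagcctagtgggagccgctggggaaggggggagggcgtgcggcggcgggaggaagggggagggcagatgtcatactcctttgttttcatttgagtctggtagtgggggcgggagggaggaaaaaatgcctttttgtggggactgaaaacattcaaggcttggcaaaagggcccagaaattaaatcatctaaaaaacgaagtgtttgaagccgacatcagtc
SRSF4 (chr1:29181901-29182150, minus strand): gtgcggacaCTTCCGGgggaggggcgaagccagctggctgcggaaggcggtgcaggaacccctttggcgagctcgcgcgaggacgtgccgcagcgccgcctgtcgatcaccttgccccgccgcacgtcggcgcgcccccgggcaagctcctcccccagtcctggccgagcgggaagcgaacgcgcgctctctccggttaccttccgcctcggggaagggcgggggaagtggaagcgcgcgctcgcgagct
The SRSF4 sequence holds the motif once, beginning at position -241 relative to the start site, and the PTBP2 sequence does not hold these letters. PTBP2's window has 11 CpG dinucleotides and 55.2% G+C, and SRSF4's has 36 and 73.6%. Of the 38 regulators with a sequence in the table, 5 (13.2%) held the motif on either strand. They were SRSF4, SRSF5, HNRNPD, HNRNPF and HNRNPLL. The share was 14.6% of the 10915 tested genes with a sequence and 8.82% of 27305 promoters in all. Their median G+C content was 65.2%, against 64.8% for tested genes.

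The SR proteins as a group had mostly negative differences, none of which passed. Of 13 tested, 12 were below 0, with a median of -0.11, whereas 47.7% of all genes tested were below 0 with a median of 0.0065. The count depended on which arrays were compared. Without the second shDBC1 array 5 of 13 were below 0 and the median was 0.021, where the first shDBC1 array stands against the mean of both controls. Against the first shNS array alone, 10 of 13 were below 0 on that array, with a median of -0.04. Without the first shNS array 8 of 13 were below 0, with a median of -0.03. The count stayed at 12 of 13 without the second shNS array (median -0.19) and without the first shDBC1 array (median -0.22). It was also 12 of 13 after repeated quantile normalisation, with a median of -0.077. SRSF4 was the only SR gene whose lines did not overlap, where 24.9% of all genes tested did not, and SRSF12 was too dim to be tested, at 5.97 to 6.22 over the 4 arrays.

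SRSF4, a large SR protein with a long arginine-serine domain, read 9.97 and 10.0 in shNS and 9.61 and 9.77 in shDBC1. Both shDBC1 readings were lower than both controls. The difference was -0.30 (SE 0.11, interval -0.60 to 0.0040), a 1.23-fold lower intensity with an unadjusted p of 0.052 and an adjusted p of 1 in limma. It stayed negative when any 1 array was left out, from -0.38 to -0.22. Unlike most of the SR genes, its lower shDBC1 reading was on the first array.

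The 5 SR genes next by p shared another arrangement, in which the first shDBC1 array read near the controls and the second was the lowest of all 4. SRSF7, known for its zinc knuckle, read 10.3 and 10.1 in shNS and 10.2 and 9.98 in shDBC1 (-0.13, SE 0.12). TRA2B, a splicing activator that binds GAA-rich enhancers, read 11.4 and 11.3 against 11.4 and 11.0 (-0.16, SE 0.16). Its paralog TRA2A read 11.6 and 11.4 against 11.6 and 11.1 (-0.19, SE 0.21). Between the arrays numbered 1 TRA2B differed by -0.03 and TRA2A by 0.00089, so both differences came from the arrays numbered 2. SRSF3, the smallest SR protein, read 11.9 and 11.8 against 11.9 and 11.5 (-0.15, SE 0.15). SRSF2, also known as SC35 and as a marker of nuclear speckles, read 11.5 and 11.2 against 11.4 and 10.9 (-0.17, SE 0.20). Without the second shDBC1 array the differences of TRA2A, TRA2B, SRSF2 and SRSF3 were 0.079, 0.021, 0.056 and 0.021, each above 0. These values set the first shDBC1 array against the mean of both controls. Against the first shNS array alone, SRSF2 differed by -0.08 and SRSF3 by -0.02, so these signs depended on which control was used. SRSF7 remained below 0 without the second shDBC1 array, at -0.045.

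The remaining SR genes lay between -0.11 and 0.05. SRSF8 was at -0.11, SRSF1, the founding member of the family, at -0.08 (SE 0.21), and SRSF10, a regulator active when dephosphorylated, at -0.08. SRSF6 was at -0.05, SRSF9 at -0.04 and SRSF11 at -0.03. SRSF5 was the 1 SR gene above 0, at 0.05. A second probe set was measured for SRSF10 and for TRA2A. For SRSF10 it gave -0.08, as did the first, and for TRA2A it gave -0.05 with shNS readings of 8.10 and 7.93 and shDBC1 readings of 7.93 and 8.01. On that second TRA2A probe set the second shDBC1 array was not the lowest.

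**Figure D2:**
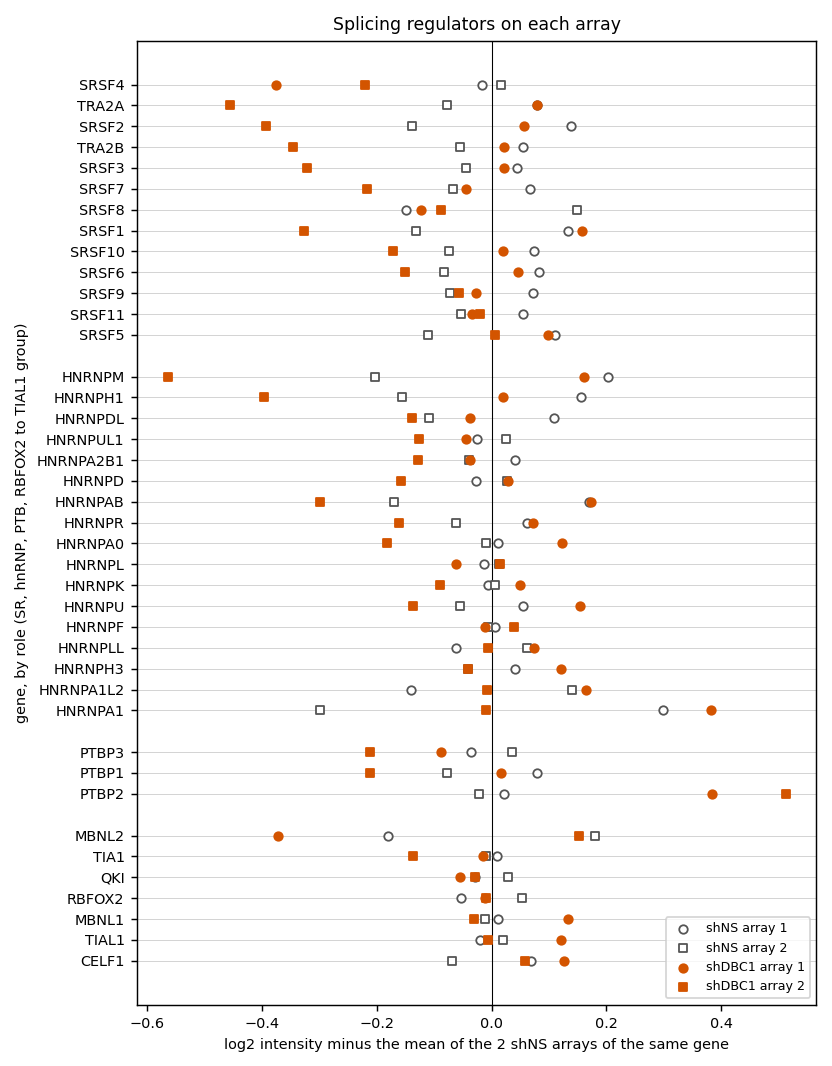
Log2 intensity of each of the 40 regulators tested on each array, minus the mean of that gene's 2 shNS arrays (horizontal axis), by gene and role; open symbols are shNS, filled symbols shDBC1, circles the arrays numbered 1 and squares those numbered 2. PTBP2 and SRSF4 are the members whose filled symbols stand farthest from the open ones on one side, and the filled squares lie left of all other symbols for 23 of 40 genes.

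The hnRNPs, abundant nuclear proteins that package transcripts and often silence exons, had differences close to 0. Of 19 genes 17 were tested, and HNRNPCL1 and HNRNPCL2 were too dim. The differences ran from -0.20 for HNRNPM to 0.19 for HNRNPA1, all 17 under 1.2-fold. They had a median of -0.03, and 11 were below 0. Without the second shDBC1 array 5 of 17 were below 0 with a median of 0.071, and without the first 15 of 17 with a median of -0.13. After repeated quantile normalisation 9 of 17 were below 0. The smallest unadjusted p was 0.392, and HNRNPUL1 was the only hnRNP gene whose lines did not overlap, against 24.9% of all genes tested.

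HNRNPH1, which binds G-rich tracts, read 11.3 and 11.0 in shNS and 11.2 and 10.8 in shDBC1 (-0.19, SE 0.20). The readings overlapped, and the gap within each line was larger than the gap between the lines. HNRNPM, a regulator of splicing in the epithelial-mesenchymal transition, read 10.7 and 10.3 against 10.7 and 9.97 (-0.20, SE 0.29, interval -0.97 to 0.57). Its shDBC1 arrays differed from each other by 0.72, the widest such gap among the regulators. In the fit by group alone it is therefore the regulator whose difference is bounded least on the lower side. HNRNPA2B1, which also sorts RNAs for transport, read 11.2 and 11.1 against 11.1 and 11.0 (-0.08, SE 0.11). HNRNPUL1 read 11.8 and 11.9 against 11.8 and 11.7 (-0.09, SE 0.11). Both its shDBC1 readings were the lower ones, by 1.06-fold on average. HNRNPDL, a paralog of HNRNPD, read 10.5 and 10.3 against 10.4 and 10.3 (-0.09, SE 0.13).

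The other hnRNPs had differences between -0.06 and 0.08, among them HNRNPD and HNRNPAB (both -0.06), HNRNPR (-0.04), HNRNPA0 (-0.03), HNRNPL and HNRNPK (both -0.02). Above 0 were HNRNPU (0.0086), HNRNPF (0.01), HNRNPLL (0.03), HNRNPH3 (0.04) and HNRNPA1L2 (0.08). HNRNPK, a poly(C)-binding protein, read 12.4 and 12.4 in shNS and 12.5 and 12.3 in shDBC1. HNRNPF read between 11.1 and 11.2 on all 4 arrays, with an interval of -0.26 to 0.29.

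HNRNPA1, the best-studied repressor of the group, has close sequence copies, and its values depended on the probe set. The probe set with HNRNPA1 as its only symbol read 7.28 and 6.68 in shNS and 7.36 and 6.97 in shDBC1 (0.19, SE 0.26), near the filter level and with a gap of 0.60 between the shNS arrays. Another 11 probe sets carried a regulator's symbol together with others and were not used to name a gene. Those shared by HNRNPA1, HNRNPA1L2 and pseudogenes read from 12.4 to 12.6 on every array, with differences of -0.01 to 0.02. Those shared by HNRNPC and its HNRNPCL copies differed by -0.05 and -0.13, and those shared by HNRNPA3 and its pseudogene by -0.05 to -0.02. The probe set shared by HNRNPUL2 and its readthrough was at -0.10, and that of HNRNPH2 and its readthrough at -0.0020. Over the 11 the differences ran from -0.13 to 0.02, inside the range of the single-symbol hnRNP probe sets, and 8 were below 0.

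The 7 other regulators, which bind short sequence elements and set exon choice by tissue or stress, also differed little. Their median was -0.01, with 4 of 7 below 0. The median was -0.06 without the first shNS array and 0.04, with 2 of 7 below 0, without the second. It was 0.017 after repeated quantile normalisation and 0.020 with a 50th percentile filter, which 6 of the 7 passed. All 7 were under 1.2-fold, and the smallest unadjusted p was 0.457. CELF1, which binds GU-rich elements, read 10.9 and 10.7 in shNS and 10.9 and 10.9 in shDBC1 (0.09, SE 0.11). TIA1, a U-rich binding protein of stress granules, read 9.95 and 9.93 against 9.92 and 9.80 (-0.08, SE 0.11). TIA1 was the 1 gene of the 7 whose lines did not overlap, against 24.9% of all genes tested. Its paralog TIAL1 read 9.32 and 9.36 against 9.46 and 9.33 (0.06, SE 0.11).

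The muscleblind genes, whose proteins oppose CELF1 on many muscle exons, did not share a direction. MBNL1 read 11.7 and 11.7 in shNS and 11.8 and 11.6 in shDBC1 (0.05, SE 0.12). MBNL2 read 11.3 and 11.7 against 11.1 and 11.6 (-0.11, SE 0.23). MBNL2 was thus higher on the arrays numbered 2 in both lines, by 0.36 and 0.52, more than the lines differed. QKI, known from myelination and from circular RNA formation in the epithelial-mesenchymal transition, read 7.29 and 7.34 against 7.26 and 7.29 (-0.04, SE 0.10). RBFOX2, which binds GCAUG, read 10.6 and 10.7 against 10.6 and 10.6 (-0.01, SE 0.11, interval -0.29 to 0.27).

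For 36 of 40 regulators (90.0%) the wider of the gaps within a line was larger than the difference between the lines, as it was for 84.6% of all genes tested. This sets the wider of 2 gaps between single arrays against a difference of means, which favours the gap. No conclusion about the regulators was drawn from it. In 24 of 40 (60.0%) the array numbered 2 read lower than that numbered 1 in both lines, against 34.6% of all genes tested. The same held for 10 of 13 SR genes and 10 of 17 hnRNPs. The opposite order in both lines was seen for 6 of 40 (15.0%), namely SRSF4, SRSF8, HNRNPL, MBNL2, QKI and RBFOX2, against 33.3% of all genes. The second shDBC1 array was the lowest of the 4 for 23 regulators (57.5%), against 27.1% of all genes tested. What the replicate numbers share is not given in the labels, and the part of that difference in the SR result was not tested.

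**Figure D3:**
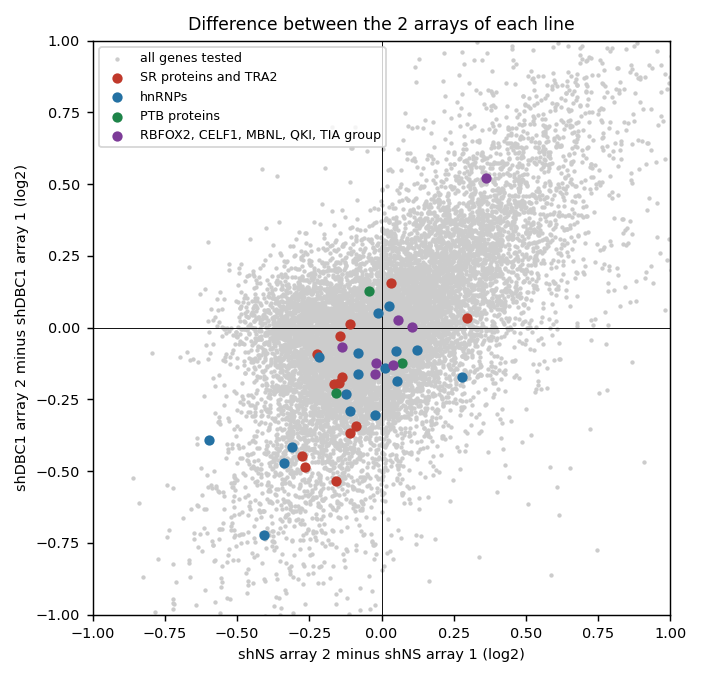
Difference between the 2 arrays of the shNS line (horizontal axis, log2) and of the shDBC1 line (vertical axis, log2) for the regulators, coloured by role, and in grey for all genes tested (238 of 13813 genes lie outside the axes). The lower left part, where array 2 is lower in both lines, holds 24 of the 40 regulators, 10 of them SR genes and 10 hnRNPs.

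Compared within replicate numbers, the median over the 40 regulators was -0.02 for the first shDBC1 array minus the first shNS array and -0.10 for the second pair, while over all genes both medians were 0. In the first pair 22 of 40 were below 0, and in the second 31. For SR genes the 2 medians were -0.04 and -0.19, with 10 of 13 below 0 in each. For hnRNPs they were 0.0095 and -0.10, with 7 and 13 of 17 below 0.

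The machinery around these regulators was read from 5 lists, described by counts and medians with no list test. No gene of any of them passed at an adjusted p under 0.05, as for all genes. Of 10 tested kinases and importins of SR proteins 7 were above 0, with a median of 0.05. DYRK1A, a kinase that phosphorylates splicing factors, was at -0.16 (SE 0.10), and the SR protein kinases SRPK2 and SRPK1 were at 0.13 (SE 0.11) and 0.08 (SE 0.12). Without the second shDBC1 array that list's median was 0.0097. Between same-numbered arrays it was 0.011 for the first pair and 0.044 for the second. SRPK1 read 12.2 and 12.2 in shNS and 12.4 and 12.2 in shDBC1, so its readings overlapped.

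Of 46 tested core spliceosome genes 29 were below 0, with a median of -0.02, which was 0.064 without the second shDBC1 array. Within replicate numbers the medians were 0.0073 for the first pair and -0.05 for the second. The Sm protein gene SNRPE was higher on both shDBC1 arrays (0.21, SE 0.11), while SNRNP40 and the helicase gene DDX5 were at -0.27 (SE 0.18) and -0.21 (SE 0.14). Over this list 5 of 46 (10.9%) had no overlap between the lines, against 24.9% of all genes tested. The second shDBC1 array was the lowest of the 4 for 29 of the 46, as it was for most SR genes. In the exon junction and nonsense-mediated decay list, which covers the machinery that degrades many transcripts with premature stop codons, 9 of 14 were below 0, with a median of -0.03. CASC3 was at -0.28 (SE 0.11), SMG6 at -0.17 (SE 0.11) and MAGOHB at -0.26 (SE 0.17), each lower on both shDBC1 arrays. Readings of the lines did not overlap for 3 of the 14 (21.4%), against 24.9% of all genes tested. The list's median was 0.10 without the second shDBC1 array. Between same-numbered arrays it was 0.014 for the first pair and -0.07 for the second.

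Of 41 other splicing regulators tested 28 were below 0, with a median of -0.05, which was 0.014 without the second shDBC1 array. Within replicate numbers both medians were below 0, at -0.05 for the first pair and -0.07 for the second. In that list 2.44% had an unadjusted p under 0.05 in limma, against 3.44% of all genes tested. The 1 gene was CELF2, a paralog of CELF1. It read 7.56 and 7.66 in shNS and 7.10 and 7.16 in shDBC1, a 1.40-fold lower intensity (-0.48, SE 0.11, interval -0.77 to -0.19, limma adjusted p = 1). Both its shDBC1 readings were below both controls. KHDRBS3 and the epithelial regulator gene ESRP2 were at -0.27 (SE 0.15) and -0.23 (SE 0.13), also lower on both shDBC1 arrays.

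In the list of DBIRD and RNA polymerase II genes, 13 of 21 were below 0 and the median was -0.06, which was 0.065 without the second shDBC1 array. Between same-numbered arrays the median was 0.029 for the first pair and -0.11 for the second. After CCAR2 the smallest p belonged to the elongation factor gene SUPT4H1 (-0.38, SE 0.14) and the polymerase subunit gene POLR2E (-0.29, SE 0.12). Both were lower on both shDBC1 arrays, and neither passed. Readings did not overlap for 6 of the 21 (28.6%), CCAR2 among them, against 24.9% of all genes tested. ZNF326, the partner of DBC1 in the complex, read 8.47 and 8.47 in shNS and 8.69 and 7.84 in shDBC1 (-0.21, SE 0.30, interval -0.99 to 0.58). Its shDBC1 arrays lay on opposite sides of the controls. CCAR1, the paralog of CCAR2, was at -0.08 (SE 0.27).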

How the data were processed

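Expression was measured on 4 Affymetrix arrays (platform with 33297 probe sets), 2 per line. The authors deposited log2 intensities made with GCOS and RMA, per the submitters' processing notes; their versions, filters and annotation build are not stated in the labels, and the scale was taken as log2 from the range of values and from RMA. RMA compresses folds of dim genes and hides shifts shared by all genes. Of the probe sets, 19460 carried 1 symbol in the platform annotation; several-symbol (1754) and unnamed (12083) ones named no gene. Genes under the 25th percentile were left out, leaving 13813. The lines were compared with limma 3.58.1 in R 4.3.3 (lmFit, eBayes, group only, two-sided, Benjamini-Hochberg over all genes tested, threshold 0.05); intervals are at 95%. Residual degrees of freedom were 2 and prior ones 2.60, so the number of arrays limits precision. On simulated data for this comparison (13813 genes, 20 runs) 20% of 2-fold changes and 86% of 4-fold changes were called. Each run changed 200 genes and drew independent noise for each array, whereas same-numbered arrays deviated together in these data (correlation 0.653 across genes). These rates therefore hold for the simulated setting only. Replicates are labelled biological.

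The regulators and lists were chosen with earlier results of these data known. Named were CCAR2, the PTB genes, the 6 regulators of each other role and the 3 genes of each list with the smallest p. ZNF326, CCAR1, other regulators and neuronal genes were named after their values were seen. Of the marker lists set for other cell types, luminal genes had 6 of 8 tested below 0, fibroblast 1 of 2, leukocyte 0 of 2, neuronal 3 of 4, muscle 1 of 5 and MDA-MB-231 genes 4 of 8. Alternatives were other filters, repeated quantile normalisation, median centring, other priors, averaged probe sets, a replicate block and leaving out each array.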

Additional observations from a re-analysis of the deposited data

How the results depend on the processing

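No alternative run brought a regulator past the limma threshold, and the count was 0 throughout. The count over all genes was 0 under each alternative except the replicate block, where it was 113, with CCAR2 among them (-1.06, adjusted p 0.0232) and no regulator (PTBP2 adjusted p 0.114, SRSF4 0.284). No label explains the replicate numbers; same-numbered arrays deviated together (correlation 0.653 across genes). Regulators at an unadjusted p under 0.05 in limma numbered 2 of 43 with no filter and 2 of 40 with a replicate block. These were PTBP2 and SRSF4 in both. Over all genes 584 of 18417 had such a p with no filter and 1612 of 13813 with a replicate block. Regulators with no overlap numbered 14 to 27 with an array left out, since a single array overlaps less often. The share over all genes tested is not given for these runs, so whether these counts exceed it was not tested. The named genes kept their direction in all 276 values under other settings. Changing the filter or prior, or adding a replicate block, cannot alter a difference in this balanced design. Only repeated quantile normalisation, median centring and averaged probe sets could have turned one. With an array left out, 13 genes turned in 16 of 140 values. Their ranges were PTBP1 -0.21 to 0.017, TRA2B -0.35 to 0.021, SRSF3 -0.32 to 0.021, TRA2A -0.46 to 0.079, SRSF2 -0.39 to 0.056, HNRNPH1 -0.40 to 0.020, HNRNPA1 -0.11 to 0.48, HNRNPM -0.56 to 0.16, HNRNPDL -0.20 to 0.021, TIAL1 -0.0070 to 0.12, MBNL2 -0.37 to 0.15, MBNL1 -0.030 to 0.13 and SRPK1 -0.0092 to 0.17. For HNRNPA1 a negative value of -0.11 was seen without shNS array 2, and of -0.0094 without shDBC1 array 1. HNRNPM was 0.0017 without the first shNS array and MBNL2 0.070 without the second. A fit with 1 array in a line assumes that array varies like the other line. It also leaves the replicate numbers unbalanced between the lines, so a turned sign need not hold between same-numbered arrays. How far dim probe sets stood above background was not analysed here.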
